A study of Mus musculus with 12 samples.

Results

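The proteasome subunit genes on the array were those whose symbol starts with Psma, Psmb, Psmc, Psmd or Psme and a digit, leaving out the inducible subunits Psmb8 and Psmb9. Of 19013 gene symbols measured, 43 fitted the pattern. Psmc3ip and Psme3ip1 carry such a symbol but encode no subunit, which left 41 proteasome genes: 17 of the 20S core, 20 of the 19S cap with its assembly chaperones, and 4 of the activators that can take the place of the cap. Each gene was measured by 1 feature, the one with the highest mean over the 12 arrays in the deposited value table.

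Whole hearts were taken from female FVB/N mice at 3 weeks of age, and total RNA was hybridised to Illumina MouseWG-6 BeadChips, 1 heart per array. The severe hearts (MHC-CELF∆-10) and mild hearts (MHC-CELF∆-574) carry a transgene for a dominant negative CELF protein, which represses splicing regulation by the CELF family and is driven in heart muscle cells by the α-myosin heavy chain promoter. Each line was represented by 3 hemizygous hearts and by 3 hearts of its own wild type littermates. The 6 wild type hearts were pooled as the control. Each severity was represented by 1 transgenic line, so severity and line cannot be told apart, and a whole heart holds many cell types besides the muscle cells that express the transgene. In such tissue, fewer cells of a type and less RNA per cell cannot be told apart.

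The 26S proteasome degrades proteins that carry ubiquitin chains. Its 20S core is a barrel of outer alpha rings, which gate the entry, and inner beta rings, which hold the proteolytic sites. The 19S cap binds the ubiquitin chain, removes it and unfolds the substrate with a ring of ATPases. PA28 and PA200 activators open the barrel without ATP, and in immune signalling the constitutive catalytic subunits Psmb6, Psmb7 and Psmb5 are replaced by Psmb9, Psmb10 and Psmb8. In heart muscle the system turns over damaged and sarcomeric proteins.

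All values are log2 signals after background correction and quantile normalisation, and a level is compared only between arrays, never between genes. A gene was called changed at an adjusted p under 0.05 in a limma fit over all 30854 distinct features, with Benjamini-Hochberg adjustment. Of the 41 genes, 36 had a mean above that of the median feature. Psma1, Psma3 and Psma6 of the core and Psmc6 and Psmd3 of the cap lay below it, and their signal cannot be said to stand above background, since no detection values were used. The same limit holds for Psma8 and Psmb11, with means of 6.68 and 6.61 against 6.56 for the median feature in the deposited table. Precision is limited by the number of arrays. The within-group SD of the proteasome genes had a median of 0.11, against 0.11 over all features, and ranged from 0.06 for Psmb4 to 0.39 for Psmb1.

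The transcripts of the proteasome were close to wild type in both lines, apart from 4 genes. In mild hearts 3 of 41 genes (7.32%) passed the test, against 3.55% of all features: Psmb10 rose (1 gene, against 1.62% of all features higher), and the activators Psme1 and Psme4 fell (2 genes, against 1.93% lower). In severe hearts 2 genes (4.88%) passed, against 3.3% of all features: the cap subunit Psmd13 rose and Psme1 fell, where 1.75% of all features were called higher and 1.56% lower. These shares exceed those of all features by fewer than 2 genes and are not a result about the group as a whole. All features include many dim ones, whereas 36 of the 41 genes lay above the median feature. Of those 36, 3 (8.33%) were called in mild hearts and 2 (5.56%) in severe hearts. A separate fit over the 15427 features above the median called 1226 in mild hearts and 1167 in severe hearts. That fit has its own adjustment, and in it Psme4 also passed in severe hearts (limma, adjusted p = 0.0373). The shares of the 36 genes can thus be set against it only roughly, and are no result about the group. The same difference in brightness applies to the shares given below for the 41 genes. None of the 41 genes reached a 2-fold change, whereas 0.269% of all features in mild hearts and 0.136% in severe hearts did so with an adjusted p under 0.05 or an unadjusted p under 0.001. The median log2 difference over the 41 genes was 0.06 in mild hearts and -0.01 in severe hearts, against 0.00 over all features in both. With median scaling in place of quantile normalisation the median in severe hearts was -0.12, and 4 genes were called there, Psmb6, Psmb7, Psme1 and Psme4, all of them lower.

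Where no change was called, the data bound the size of a change in signal. The 95% interval of the difference lay within a 1.5-fold change in either direction for 37 of the 38 genes not called in mild hearts. In severe hearts it did so for 37 of the 39 not called. With called genes included, 38 of the 41 (92.7%) had such an interval in mild hearts, against 97.2% of all features. In severe hearts 39 of the 41 (95.1%) had one, against 97.4% of all features. Among the genes not called, the exceptions were Psmb1 in both lines and Psmb5 in severe hearts, the genes with the largest spread between replicates. All 20 genes of the cap had intervals within 1.5-fold in both lines. Psma1, Psma3, Psma6, Psmc6 and Psmd3 are counted here, as are Psma8 and Psmb11, but the signal of these genes cannot be said to stand above background. For them the interval bounds the signal and not the transcript.

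**Figure D1:**
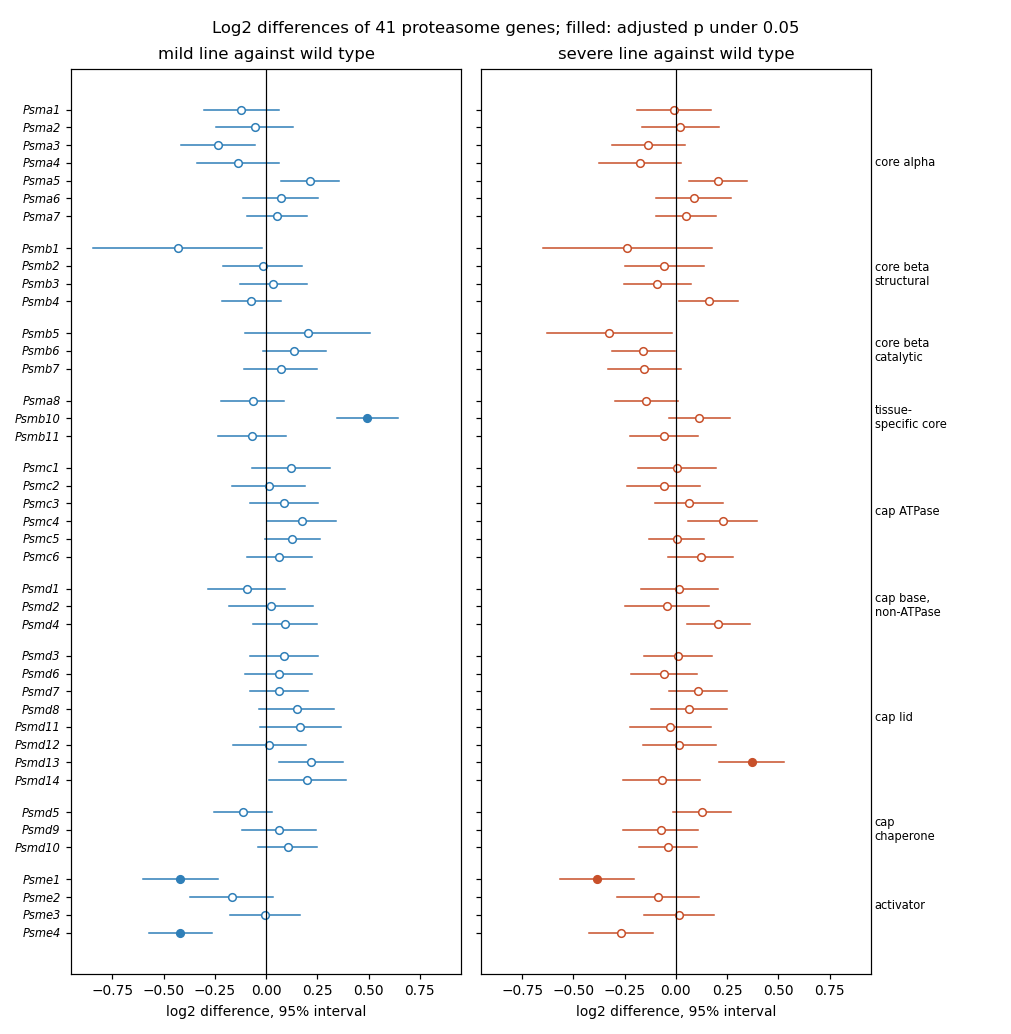
Log2 difference of each of the 41 proteasome genes from the 6 wild type arrays (x axis, with its 95% interval from limma), in mild hearts at left and severe hearts at right, with 3 arrays per line. Genes are grouped by their place in the proteasome, and filled points passed the test: Psmb10, Psme1 and Psme4 in mild hearts, Psmd13 and Psme1 in severe hearts.

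Both genes called lower encode activators. Psme1 encodes PA28 alpha, which forms a ring with PA28 beta, the product of Psme2, on the core, and both are known as targets of interferon gamma. Psme1 read 10.72, 10.70 and 10.81 in mild hearts and 10.72, 10.97 and 10.64 in severe hearts, whereas the wild type littermates read 11.00, 11.33 and 11.13 for mild hearts and 11.29, 11.04 and 11.19 for severe hearts. All 6 transgenic arrays lay below all 6 wild type arrays. The wild type mean was 11.16 ± 0.13 (SD, n = 6). Psme1 fell by 0.42 on the log2 scale in mild hearts (SE 0.09, 1.34-fold, adjusted p = 0.00722) and by 0.39 in severe hearts (SE 0.09, 1.31-fold, adjusted p = 0.0152), and the difference between the lines was -0.03 with a 95% interval from -0.24 to 0.18. The call was lost without mild array 2 in mild hearts (adjusted p = 0.058) and without severe array 1 or 3 in severe hearts (adjusted p = 0.106 and 0.116). It was also lost with a background offset of 16 (adjusted p = 0.0621 in mild hearts and 0.1 in severe hearts) and against own littermates with the replicate number as a block (adjusted p = 0.0988 and 0.115). With single arrays left out, the change ran from -0.45 to -0.38 in mild hearts and from -0.48 to -0.32 in severe hearts.

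Psme4 encodes PA200, an activator of nuclear proteasomes known for the turnover of acetylated histones. It read 10.87, 11.18 and 11.14 in mild hearts and 11.27, 11.22 and 11.16 in severe hearts, while the littermates read 11.42, 11.47 and 11.48 for mild hearts and 11.52, 11.58 and 11.43 for severe hearts. Here too no transgenic array reached the lowest wild type array. Psme4 fell by 0.42 in mild hearts (SE 0.07, 1.34-fold, adjusted p = 0.00165) and was called under each of the 24 alternatives tried. Some of these could not move the estimate, such as the use of a second feature, which Psme4 lacks, and the omission of a severe array. In severe hearts the difference was -0.27 (SE 0.07, adjusted p = 0.0547), just outside the threshold, and 7 of 24 alternatives put it inside, among them the omission of mild array 1 (adjusted p = 0.0261). The direct difference between the lines, -0.15 with an interval from -0.33 to 0.03, did not pass (adjusted p = 0.504).

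The other PA28 genes did not pass. Psme2, the partner of Psme1, read 8.59, 8.74 and 8.69 in mild hearts, 8.60, 8.87 and 8.80 in severe hearts and 8.60 to 9.03 in wild type, and these groups overlapped. Its difference was -0.17 in mild hearts (95% interval -0.37 to 0.03, adjusted p = 0.532) and -0.09 in severe hearts (interval -0.29 to 0.12, adjusted p = 0.788). Psme3 encodes PA28 gamma, the nuclear form that works without interferon. Its levels were 8.98, 8.76 and 8.78 in mild hearts and 8.79, 8.82 and 8.95 in severe hearts, inside the wild type range of 8.66 to 9.05. The differences were -0.004 and 0.01, with signs that changed with the scaling or the choice of littermates. Across the 4 activators the median difference was -0.29 in mild hearts and -0.18 in severe hearts.

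**Figure D2:**
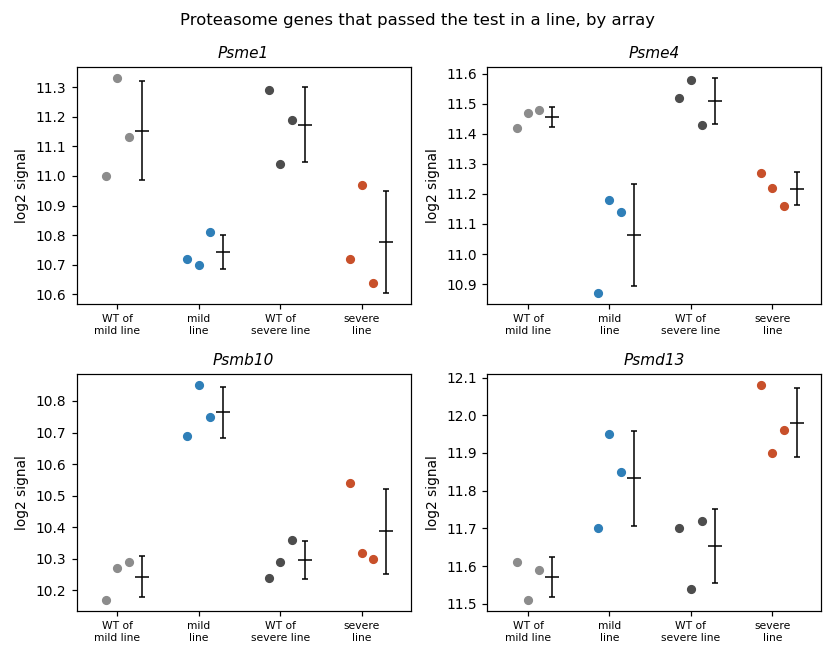
Log2 signal (y axis) of Psme1, Psme4, Psmb10 and Psmd13 on each of the 12 arrays, 3 per group, with the group mean and SD beside the points and a separate y range per gene. For Psme1 and Psme4 all 6 transgenic arrays lie below all 6 wild type arrays, for Psmb10 the 3 mild arrays, from 10.69 to 10.85, stand above all others, and for Psmd13 the 3 severe arrays lie above all wild type arrays.

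The 250 bases before the start of Psme1, Psme4 and Psmd13 (RefSeq, mouse build GRCm38.p6) are shown as those of genes called in a line. Of the called genes, Psme4 and Psmd13 hold an Ets core in this stretch, whereas Psme1 and Psmb10 do not. The stretch of Psmb10 is not printed. Capitals mark the core of Ets-family sites (CCGGAA on either strand), and the sequences run 5′ to 3′ along the gene up to the base before the start.
Psme1 (chr14:55578244-55578493, plus strand): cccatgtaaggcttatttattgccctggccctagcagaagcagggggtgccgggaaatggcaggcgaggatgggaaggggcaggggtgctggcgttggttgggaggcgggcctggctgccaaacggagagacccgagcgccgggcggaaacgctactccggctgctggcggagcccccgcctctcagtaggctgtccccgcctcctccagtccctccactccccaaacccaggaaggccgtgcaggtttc
Psme4 (chr11:30771525-30771774, plus strand): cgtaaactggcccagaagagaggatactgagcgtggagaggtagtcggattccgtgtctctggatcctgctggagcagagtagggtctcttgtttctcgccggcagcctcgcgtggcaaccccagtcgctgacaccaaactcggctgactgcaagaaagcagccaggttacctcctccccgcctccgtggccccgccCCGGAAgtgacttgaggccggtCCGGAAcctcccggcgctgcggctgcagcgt
Psmd13 (chr7:140882144-140882393, plus strand): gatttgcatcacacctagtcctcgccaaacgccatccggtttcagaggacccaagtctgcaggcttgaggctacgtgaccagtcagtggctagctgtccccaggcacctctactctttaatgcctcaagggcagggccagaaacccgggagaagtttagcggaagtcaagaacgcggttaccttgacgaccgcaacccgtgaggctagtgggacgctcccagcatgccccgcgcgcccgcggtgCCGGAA

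The Ets core occurred in 14 of the 34 proteasome genes with an entry (41.2%), and in 12.2% of the 27025 genes in the table. The 14 genes were Psma5 of the core, Psmc1, Psmc2, Psmc5, Psmc6, Psmd2, Psmd4, Psmd6, Psmd10, Psmd11, Psmd12 and Psmd13 of the cap, and the activators Psme3 and Psme4. Psme4 holds it 53 to 48 and 31 to 26 bases before the start, and Psmd13 in the last 6 bases before the start. The GC box (GGGCGG, either strand) was found before 20 of the 34 genes (58.8%) and before 32.9% of all genes, Psme1 and Psme4 included. The interferon-stimulated response element was found before 3 of the 34 (8.82%, against 3.04% of all genes), Psmb3, Psmd4 and Psmd9. The gamma-activated sequence was found before 0 of the 34, against 7.18% of all genes. The nuclear respiratory factor site was found before 6 of the 34 (17.6%, against 3.86%) and the E-box before 4 (11.8%, against 6.05%), Psmb10 included. The CCAAT box was found before 13 (38.2%, against 34.5%) and the heat shock element before 1 (2.94%, against 6.78%). The serum response element was found before 0 (against 0.074%). A match is a description of the letters, not a site in use, and 11 motifs were searched after the expression values were known.

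The largest rise among the 41 genes was that of Psmb10, the inducible beta subunit that replaces Psmb7 in the immunoproteasome. It read 10.69, 10.85 and 10.75 in mild hearts and 10.54, 10.32 and 10.30 in severe hearts. The littermates read 10.17, 10.27 and 10.29 for mild hearts and 10.24, 10.29 and 10.36 for severe hearts. The 3 mild arrays stood above all 9 others, and 2 of the 3 severe arrays lay inside the wild type range. Psmb10 rose by 0.49 in mild hearts (SE 0.07, 1.41-fold, adjusted p = 2.2e-04), a call kept under all 24 alternatives with values from 0.44 to 0.53. As for Psme4, some of these could not move the estimate. In severe hearts the difference was 0.12 (95% interval -0.03 to 0.26, adjusted p = 0.537).

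Psmb10 was also the 1 of 41 genes (2.44%, against 1.37% of all features) that differed between the lines, being 0.38 higher in mild hearts (SE 0.08, adjusted p = 0.0241). That call held in 16 of 24 alternatives. It did not hold when each line was set against its own littermates (0.43, adjusted p = 0.241, and 0.44 with the replicate number as a block), with a background offset of 16 (adjusted p = 0.162), with only the groups compared in the fit (adjusted p = 0.0563), nor without severe array 2 or 3 (adjusted p = 0.0987 and 0.0971) or mild array 2 or 3 (adjusted p = 0.113 and 0.0837). Of 9 listed interferon response genes 8 were measured, and limma called 0 of them in mild hearts, in severe hearts or between the lines. At an unadjusted p under 0.05 there were 0 in mild hearts (median difference -0.01), 3 in severe hearts (Gbp2, Ifit3 and Isg15, with a list median of -0.15) and 2 between the lines (B2m and Gbp2, with a list median of 0.13). Their summed signal was 3626 to 4008 in mild hearts and 2954 to 3171 in severe hearts, so that the lines did not overlap each other, and both lay inside the wild type range of 2655 to 4151. The part of these genes in the Psmb10 difference was not tested.

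The other inducible subunits, which the rule left out, did not pass the test. Psmb8 read 8.28, 8.36 and 8.11 in mild hearts, inside the wild type range, with a difference of 0.03 (adjusted p = 0.94). Psmb9 read 8.26, 7.91 and 7.96 in mild hearts against 7.69, 7.65 and 7.44 in severe hearts. Its difference from wild type was 0.21 in mild hearts (adjusted p = 0.458) and -0.24 in severe hearts (adjusted p = 0.325), and the difference of 0.45 between the lines did not pass (adjusted p = 0.0881).

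**Figure D3:**
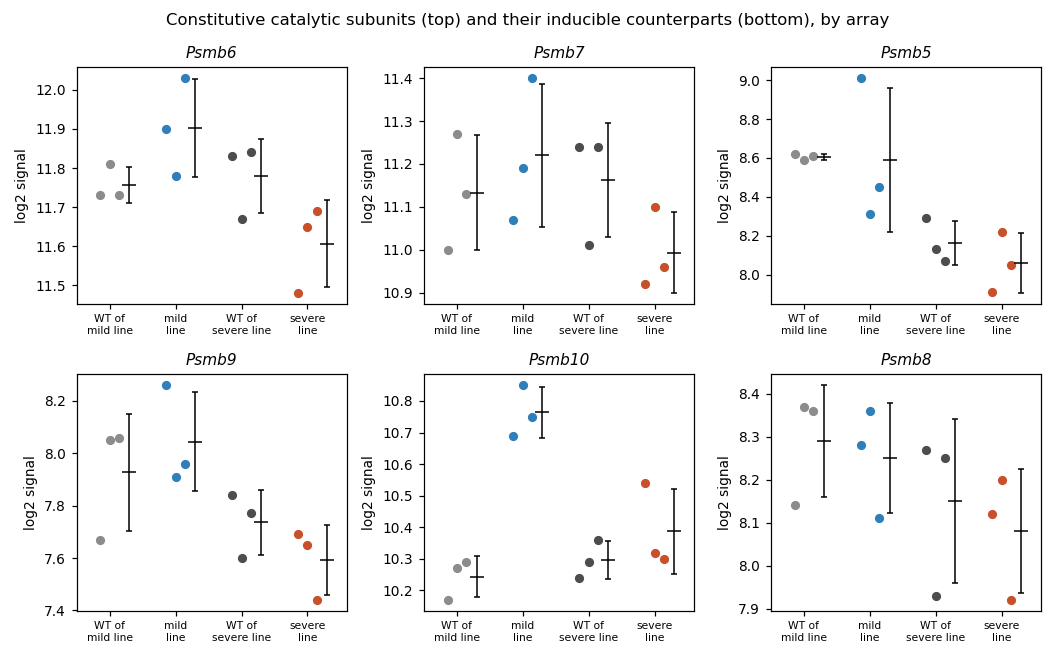
Log2 signal (y axis, a separate range per gene) of the constitutive catalytic subunits Psmb6, Psmb7 and Psmb5 in the top row and of the inducible subunit that replaces each, Psmb9, Psmb10 and Psmb8, below it, for 3 arrays per group with the group mean and SD. Psmb10 is the only one of the 6 in which a line stands apart from all wild type arrays, and Psmb5 read 8.59 to 8.62 in the wild type of the mild line and 8.07 to 8.29 in that of the severe line.

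The constitutive catalytic subunits lay above the pooled wild type mean in mild hearts (median 0.14) and below it in severe hearts (median -0.16), without passing the test in either. Psmb5, the chymotrypsin-like subunit, read 9.01, 8.31 and 8.45 in mild hearts and 7.91, 8.22 and 8.05 in severe hearts. The littermates did not overlap, at 8.62, 8.59 and 8.61 for mild hearts and 8.29, 8.13 and 8.07 for severe hearts, a difference of 0.44 between the wild type groups (SE 0.13, adjusted p = 0.247). Against the pooled wild type Psmb5 differed by 0.20 in mild hearts (adjusted p = 0.66) and by -0.32 in severe hearts (adjusted p = 0.326). Against own littermates the values were -0.02 and -0.10, and the difference between the lines shrank from 0.53 (95% interval 0.18 to 0.88, adjusted p = 0.153) to 0.09 (adjusted p = 0.965).

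Psmb6, the caspase-like subunit, differed by -0.03 between the wild type groups (adjusted p = 0.96). It read 11.90, 11.78 and 12.03 in mild hearts and 11.48, 11.65 and 11.69 in severe hearts, against 11.67 to 11.84 in wild type, so that the lines did not overlap each other. The difference between the lines was 0.30 (interval 0.12 to 0.47, adjusted p = 0.102). A second feature of Psmb6 gave 0.12 (interval -0.11 to 0.35, adjusted p = 0.736). Psmb7, the trypsin-like subunit, read 11.07, 11.19 and 11.40 in mild hearts and 10.92, 11.10 and 10.96 in severe hearts, and all groups overlapped. Its differences from wild type were 0.07 (adjusted p = 0.837) and -0.15 (adjusted p = 0.464). With median scaling both genes were called lower in severe hearts, Psmb6 by -0.32 (adjusted p = 0.0241) and Psmb7 by -0.33 (adjusted p = 0.0195), and Psmb6 differed by 0.41 between the lines (adjusted p = 0.0322).

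Psmb5 and Psmb6 were among the 5 genes of the 34 (14.7%, against 10.1% of all genes) with an antioxidant response element before the start, the element bound by Nfe2l1 and Nfe2l2 (searched as TGACNNNGC, either strand). The other genes were Psmc6, Psmd9 and Psmd12. The stretches of 60 bases that hold it are shown for both catalytic subunits, with the element in capitals.
Psmb5 (GRCm38.p6, chr14:54618008-54618067, minus strand): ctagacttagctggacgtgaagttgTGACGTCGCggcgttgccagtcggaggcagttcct
Psmb6 (GRCm38.p6, chr11:70525297-70525356, plus strand): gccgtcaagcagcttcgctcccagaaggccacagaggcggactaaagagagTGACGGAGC

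None of the other core genes was called in either line. Among the alpha subunits, the differences ran from -0.23 for Psma3 to 0.21 for Psma5 in mild hearts and from -0.17 for Psma4 to 0.20 for Psma5 in severe hearts. Psma5 was higher than all 6 wild type arrays, which read at most 11.21, on all arrays of both lines, at 11.38, 11.32 and 11.37 in mild hearts and 11.44, 11.23 and 11.36 in severe hearts. Its adjusted p was 0.11 in mild hearts and 0.13 in severe hearts. Among the structural beta subunits the range was -0.43 (Psmb1) to 0.04 (Psmb3) in mild hearts and -0.24 (Psmb1) to 0.16 (Psmb4) in severe hearts. Psmb1 varied most within the controls, from 8.56 to 9.95 among the 3 littermates of mild hearts, and its adjusted p was 0.371 in mild hearts. Psma8, the alpha subunit of germ cells, and Psmb11, the beta subunit of the thymic cortex, both differed by -0.07 in mild hearts, and by -0.15 and -0.06 in severe hearts. Both lay just above the median feature, and their signal cannot be said to stand above background.

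In the 19S cap, small positive differences prevailed in mild hearts without a single call. Of its 20 genes 18 lay above the wild type mean in mild hearts, with a median of 0.09, against 15430 of 30854 features and a median of 0.00. These 18 included all 6 ATPases (median 0.10, highest Psmc4 at 0.17) and all 8 subunits of the lid (median 0.12). Psmc6 and Psmd3 are among them, although their signal cannot be said to stand above background. In severe hearts 13 of 20 lay above, with a median of 0.01. The exceptions in mild hearts were Psmd1, a scaffold of the base, at -0.10 and Psmd5, an assembly chaperone, at -0.11. The cap genes were read on the same 3 mild arrays, so their number does not add replicates. By array, the median deviation of the cap from the wild type mean was 0.080, 0.060 and 0.133 in mild hearts. It ran from 0.030 to 0.059 in severe hearts and from -0.040 to 0.052 on the wild type arrays. With median scaling the cap median was 0.06 in mild hearts, with 16 of 20 genes above 0, and -0.08 in severe hearts, with 7 of 20 above 0, so that its sign in severe hearts turned with the scaling. Against own littermates it was 0.06 in mild hearts (16 of 20 above 0) and 0.04 in severe hearts (14 of 20). The cap median of mild against severe hearts was 0.07 (13 of 20 above 0), and -0.02 (8 of 20) with own littermates.

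Psmd13, a structural subunit of the lid, was the 1 cap gene that passed. It read 12.08, 11.90 and 11.96 in severe hearts and 11.70, 11.95 and 11.85 in mild hearts. The littermates read 11.70, 11.54 and 11.72 for severe hearts and 11.61, 11.51 and 11.59 for mild hearts, so severe hearts stood above all wild type arrays while mild hearts overlapped with them by 1 array. Psmd13 rose by 0.37 in severe hearts (SE 0.07, 1.29-fold, adjusted p = 0.00721), and the difference was 0.22 in mild hearts (interval 0.06 to 0.38, adjusted p = 0.151). The difference between the lines, -0.15 (interval -0.33 to 0.03), did not pass (adjusted p = 0.52). The call in severe hearts was lost with median scaling (0.16, adjusted p = 0.316), with a background offset of 16 (adjusted p = 0.0799), against own littermates (0.33, adjusted p = 0.0537, and 0.102 with the replicate block) and without severe array 1 (adjusted p = 0.079).

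Other cap genes with an unadjusted p under 0.05 were Psmc4, an ATPase, and Psmd14, the deubiquitinase of the lid, in mild hearts, and Psmc4 and Psmd4, a ubiquitin receptor, in severe hearts. Their differences were 0.17 and 0.20 in mild hearts (adjusted p = 0.384 and 0.354) and 0.23 and 0.21 in severe hearts (adjusted p = 0.164 and 0.171). Over all 41 genes, 9 had an unadjusted p under 0.05 in each line (22.0%), against 12.3% of all features in mild hearts and 13.5% in severe hearts. The arrays of the line did not overlap with the 6 wild type arrays for 6 genes in mild hearts (14.6%, against 7.51% of all features) and for 4 in severe hearts (9.76%, against 7.21%). The 6 genes were Psma5, Psmb10 and Psmc5, which lay above, and Psma3, Psme1 and Psme4, which lay below. The 4 genes were Psma5 and Psmd13, above, and Psme1 and Psme4, below.

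**Figure D4:**
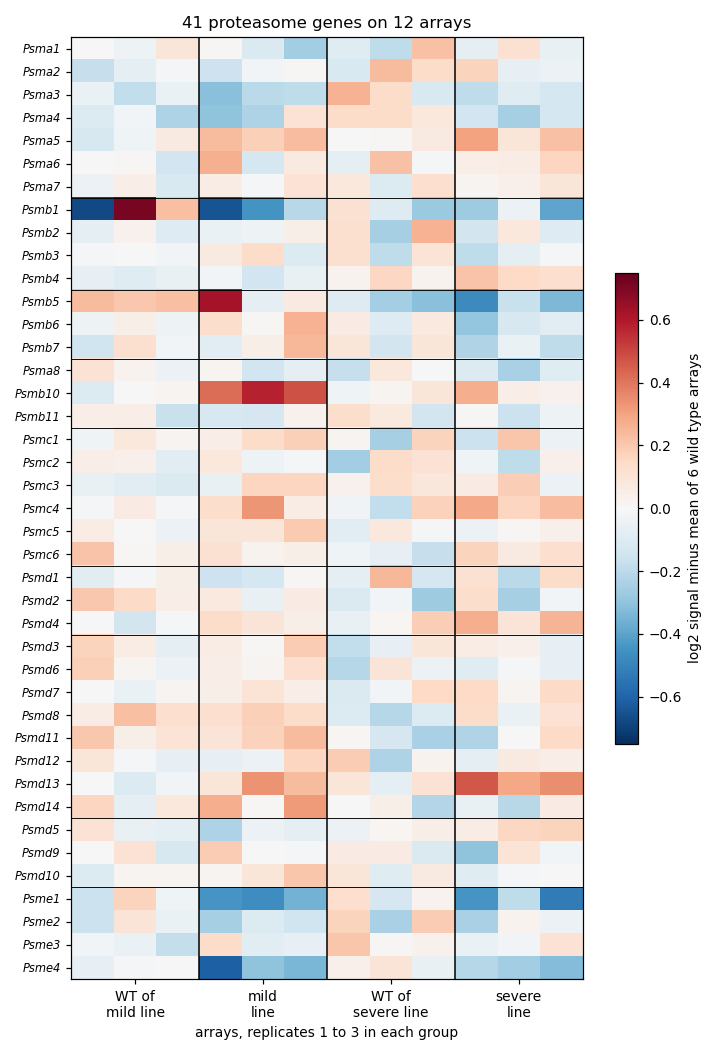
Log2 signal of each of the 41 proteasome genes (rows, grouped by part) on each of the 12 arrays (columns, replicates 1 to 3 in each group), as the difference from the mean of the 6 wild type arrays (colour, log2). Psme1 and Psme4 are below that mean on all 6 transgenic arrays, Psmb10 is highest on the 3 mild arrays, and Psmb1 and Psmb5 vary within or between the wild type groups.

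The wild type animals of each line were also compared with each other, to show differences that are met without the transgene. None of the 41 genes was called between the littermates of mild hearts and those of severe hearts (limma, against 0.0875% of all features), and 7 had an unadjusted p under 0.05 (17.1%, against 9.97%). These were Psma3, Psma4, Psmb5, Psmc6, Psmd2, Psmd8 and Psmd11. Differences between these groups ran from -0.23 for Psma4 to 0.44 for Psmb5. For Psme1, Psme4, Psmb10 and Psmd13 the wild type groups differed by -0.02, -0.05, -0.05 and -0.09. Set against their own 3 littermates only, Psmb10 rose by 0.52 in mild hearts (adjusted p = 0.00101), Psme4 fell by 0.39 in mild hearts (adjusted p = 0.0156), and Psme1 fell by 0.41 and by 0.40 in the mild and severe hearts (adjusted p = 0.0394 and 0.0483). Psmd13 did not pass in severe hearts in that fit (0.33, limma, adjusted p = 0.0537).

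Other genes of the pathway were taken from fixed lists. Among 5 measured genes of proteasome assembly and inhibition, 9 of other subunits and bound factors, 6 of the transcriptional control of proteasome genes, 7 of the p97 segregase and 1 of ubiquitin and its activation, limma called 0 of the 28 in either line. At an unadjusted p under 0.05 there were 5 in mild hearts (17.9%, against 12.3% of all features) and 2 in severe hearts (7.14%, against 13.5%). Pomp, the maturation factor of the core, had the highest value of the first group in mild hearts, 0.29 (adjusted p = 0.0698). Nfe2l1, the transcription factor that raises proteasome genes when proteolysis is short, differed by 0.08 in both lines (adjusted p = 0.758 and 0.705).

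Of 11 measured ubiquitin ligases of muscle, which choose substrates for the proteasome, 2 rose and 1 fell in mild hearts, where 1.62% of all features were called higher and 1.93% lower, and the median difference of the list was 0.06. In severe hearts limma called 0 of them, with 0 at an unadjusted p under 0.05. Trim63, the ligase MuRF1, read 9.54, 9.44 and 9.54 in mild hearts and 9.90, 10.10 and 9.76 in severe hearts, against 9.90 to 10.31 in wild type. It fell by 0.62 in mild hearts (SE 0.10, adjusted p = 8.5e-04), and all 3 mild arrays lay below the wild type arrays. Trim54, the related ligase MuRF3, read 11.30, 11.10 and 10.76 in mild hearts and 10.26, 10.33 and 10.01 in severe hearts, with 10.55, 10.58 and 10.65 in littermates of mild hearts and 10.11, 10.04 and 10.10 in those of severe hearts. It rose by 0.72 in mild hearts (SE 0.14, adjusted p = 0.00496), while its wild type groups differed by 0.51 (adjusted p = 0.101). Fbxo40, which targets Irs1 in muscle, rose by 0.44 in mild hearts (adjusted p = 0.00512). Fbxo32, the ligase atrogin-1, differed by 0.06 (adjusted p = 0.948).

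Markers of cell types in the heart moved in some groups, and their part in the results above was not tested. The summed signal of 7 measured cardiomyocyte markers was 94821 to 102844 in mild hearts, 92598 to 99885 in severe hearts and 91491 to 101300 in wild type, while Ryr2 and Pln were called lower in both lines and Actn2 was called higher in mild hearts (0.27, adjusted p = 0.042). The sum of 4 smooth muscle markers, led by Acta2, was 4370 to 4574 in mild hearts, 8509 to 11465 in severe hearts and 5231 to 7602 in wild type, so that the lines lay on opposite sides of the controls, and 1 marker was called lower in mild hearts and 2 higher in severe hearts. That of 7 fibroblast markers was 6920 to 8601 in mild hearts and 7202 to 7228 in severe hearts, against 5421 to 7070 in wild type, with Col1a1 called higher in severe hearts. Of 4 measured lymphoid markers none was called in mild hearts, and their sum was 334 to 345 there and 298 to 379 in wild type. These low signals cannot be said to stand above background, since no detection values were used. Macrophage markers summed to 2797 to 3654 in mild hearts and 2787 to 3203 in wild type, with 1 of 5 called lower. The raw median intensity was 116.2 to 118.8 on severe arrays and 102.8 to 112.5 on all others, and the part of this offset in the severe values was not tested beyond the change of scaling given above.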

How the data were processed

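Total RNA of 12 hearts, 3 in each of 4 groups, was measured on Illumina BeadChips. The authors deposited raw bead summary intensity values per probe for each array, together with a value table on the log2 scale that they had corrected and normalised, with GenomeStudio and limma named in the submitters' processing notes. The version of either tool is not given in the sources used here. Probe IDs with identical values were merged, so 45281 IDs became 30854 features, and symbols came from the platform annotation.

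The raw intensities were corrected with normexp (offset 50), quantile normalised and log2 transformed in R 4.3.3 with limma 3.58.1. Detection values were not used. Mild and severe hearts were set against the 6 wild type arrays together and against each other in 1 fit over all 12 arrays, and the wild type of each line with one another in a fit with 4 group means, with Benjamini-Hochberg adjustment over all features. The fit was tested on simulated data. Own littermates, other background corrections and scalings, the deposited table, filters, weights, other thresholds and the omission of each array were tried as alternatives. Genes named with their value on every array were those called in a comparison of the lines, the catalytic subunits, Psmb10 and the activators, and up to 4 called genes of each pathway list were named. The array values of Psma5, Psmb8 and Psmb9, and the values of Pomp, Nfe2l1 and Fbxo32, are given beside these and were chosen after they were seen. The members and lists were chosen with earlier results of these data known. Of the 2 symbols that fit the pattern without encoding a subunit, Psmc3ip differed by 0.11 in mild hearts and -0.08 in severe hearts, and Psme3ip1 by 0.09 and 0.07, none of them called. Only Psmb6, Psma8 and Psme3ip1 had more than 1 feature. Promoter letters came from RefSeq (GRCm38.p6), 250 bases before the first start listed for a gene, and 34 of 41 genes matched by symbol.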

Additional observations from a re-analysis of the deposited data

Results flagged for a closer look

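The level of Psmb10 differed between the lines: mild hearts lay 0.38 above severe hearts on the log2 scale (limma, SE 0.08, adjusted p = 0.0241). The difference was 0.49 against wild type in mild hearts and 0.12 in severe hearts, and all 3 mild arrays lay above all 3 severe arrays. The call between the lines held in 16 of 24 alternatives. With each line set against its own littermates, the rises differed by 0.43, which did not pass (limma, adjusted p = 0.241). Among the 6 wild type arrays, 0 of the 41 proteasome genes had an array set apart from the rest by Dixon's criterion. Groups of 3 arrays were not examined in this way.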

How the results depend on the processing

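With 3 arrays per group, calls near the threshold turned on single arrays. Leaving out 1 array at a time gave 2 to 3 calls among the 41 genes in mild hearts, 0 to 3 in severe hearts (0 without severe array 1), 0 to 1 between the lines and 0 between the wild type groups. The medians then ran from 0.02 to 0.07, -0.04 to 0.00, 0.00 to 0.04 and -0.06 to 0.01. The 2-fold threshold of the methods gave 0 calls in each comparison, and an adjusted p under 0.01 gave 1 in severe hearts and 0 between the lines. A background offset of 16 gave 0 calls in severe hearts and 0 between the lines, and lowered the calls over all features from 1095 to 618 in mild hearts, from 1019 to 496 in severe hearts and from 422 to 169 between the lines. Median scaling gave 4 calls in severe hearts and 2 between the lines, with medians of 0.01 in mild hearts, -0.12 in severe hearts, 0.10 between the lines and 0.03 between the wild type groups. It changed the share of higher calls over all features from 52.9% to 24% in severe hearts and from 43.6% to 67.6% between the lines, while an offset of 16 gave 26.6% between the lines and 61.1% in severe hearts. Own littermates as controls gave 1 call in severe hearts and 0 between the lines, with a median of 0.03 in mild hearts, and only the groups compared gave 0 between the lines. The replicate numbers showed no pairing of a line with its littermates. Correlations of deviations ran from -0.24 to 0.06 for equal numbers and from -0.11 to 0.20 for unequal numbers. With deviations from means of 3 arrays, this check cannot exclude a pairing. With the number as a replicate block, 0 genes were called in severe hearts and 0 between the lines, the median in mild hearts was 0.03, and Psme1 was lost in both lines (adjusted p = 0.0988 and 0.115). Median scaling turned the sign of Psmb10 in severe hearts (-0.03) and between the wild type groups (0.00), of Psmd13 between the lines (0.01), of Psme1 between the lines (0.08) and the wild type groups (0.03), of Psmb6 and Psmb7 between the wild type groups (0.02 and 0.02), and of Psme3 in severe hearts (-0.10) and between the lines (0.05). Own littermates, with or without the block, turned Psmb5 in mild hearts (-0.02) and Psme3 in mild hearts (0.08), severe hearts (-0.07) and between the lines (0.15). Leaving out 1 array turned the sign of Psme1 between the lines (-0.10 to 0.07) and the wild type groups (-0.11 to 0.06), Psmb5 in mild hearts (-0.01 to 0.34), Psmb6 between the wild type groups (-0.08 to 0.00), Psmb7 in mild hearts (-0.02 to 0.14) and between the wild type groups (-0.11 to 0.03), and Psme3 in mild hearts (-0.07 to 0.04), severe hearts (-0.04 to 0.05) and between the lines (-0.09 to 0.03). None of these turned values was called, and the cause was not tested. Slide as a block was not run, since slide was not among the columns used here, and the wild type groups could not be compared with own littermates or the block.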
